A study of Mus musculus with 6 samples.

Results

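Integrins and the proteins that tie them to the actin cytoskeleton were described in endothelial cells of the mouse lung, the cells that line its blood and lymph vessels. The set held 35 genes: 24 integrin subunits and 11 focal adhesion proteins. They were chosen by name as subunits and core adhesion proteins, with earlier results of these data known. All 35 were found among the 23793 rows of the deposited expression table, each on a row of its own.

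The study compared 3 control with 3 mutant libraries of RNA from sorted lung endothelial cells of mice of mixed strain background at postnatal day 7. The sample titles name Vegfa and Shh for both groups and the title of the series refers to epithelial Vegfa. The labels spell out neither the alleles nor the driver of a deletion, so control and mutant are used here as the labels use them. Each group held libraries A, B and C, and the control and mutant library of 1 letter are described as a pair. The main test had no term for the pair, which was added as a block only where stated. Where 3 values are listed for a group they follow the order A, B, C. For Vegfa itself the endothelial mean was 80.9 ± 7.86 FPKM in the control group (SD, n = 3) and 81.6 ± 17.1 FPKM in the mutant group, which does not check a change placed in another cell type. FPKM are fragment counts divided by transcript length and library size, a unit per length in which levels of different genes can be set side by side.

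Integrins are pairs of 1 alpha and 1 beta subunit that span the cell membrane. Outside the cell they hold matrix proteins such as laminin, collagen, fibronectin and vitronectin, or receptors on other cells. Inside, talin and kindlin bind the tail of the beta subunit and switch the pair on, and a plaque of scaffold proteins and kinases links it to actin. In blood vessels they anchor endothelial cells to the basement membrane and take part in sprouting and in the control of leakage.

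The libraries carried endothelial transcripts at high levels, with Pecam1 between 737 and 928 FPKM and the endothelial cadherin Cdh5 between 1050 and 1310 FPKM. The sum of 10 endothelial markers was nevertheless lower in each mutant library, at 5324 to 5838 FPKM, than in any control, at 6493 to 7346 FPKM. Of the 10, 6 had a lower and 4 a higher mutant mean. The tight junction gene Cldn5 was at 2190 ± 210 and 1069 ± 239 FPKM without overlap (limma, adjusted p = 0.288). The separation of the sums rested on Cldn5, and the sums of the other markers overlapped between the groups. Relative depth, read from the spacing of the lowest values with control A as 1, ran from 0.897 to 1.49. The summed level of 16 leukocyte markers ranged from 11.5 to 69 FPKM in control and from 6.93 to 56.3 FPKM in mutant libraries. That of 13 mesenchymal markers ranged from 337 to 990 FPKM in control and from 244 to 1006 FPKM in mutant libraries, with the lowest value of each group in library A. In such bulk samples fewer cells of a type and less RNA per cell cannot be told apart. The sum of 15 epithelial markers was 130 to 287 FPKM in control and 50.2 to 146 FPKM in mutant libraries, and that of 5 erythroid markers 77.4 to 300 and 31.1 to 86.3 FPKM. Markers of Car4-high capillary endothelium were lower in mean in the mutant for 8 of 8 genes, with sums of 825 to 966 FPKM in control and 174 to 342 FPKM in mutant libraries. This list was chosen with earlier results of these data known, so its direction is a description and no independent result. Apln held 243 of the 342 FPKM in mutant C, and its groups overlapped.

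The endothelial cells held a broad and abundant integrin adhesion machinery whose members mostly overlapped in level between the groups. Itgb5, Itga4 and Itga3 were each lower in every mutant library than in any control library. None of the members passed an adjusted p of 0.05. Of the 35 members, 25 averaged 1 FPKM or more over the libraries and were tested, and 10 integrin subunits averaged less. In limma, fitted on log2(FPKM + 1) over all 11693 rows above the same level, 0 of the 25 tested members passed the adjusted threshold, against a background of 0.137% of rows called (16 rows, all lower in the mutant). At an unadjusted p under 0.05 there were 3 members, all lower, which is 12% of the 25 against 8.1% of all tested rows in either direction and 4.29% lower and 3.81% higher. The same 3 members were the only tested ones whose groups did not overlap, where 6.57% of tested rows had no overlap in the lower and 7.12% in the higher direction.

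The median difference over the 25 tested members was -0.05 on the log2(FPKM + 1) scale, and it was 0.02 over all rows tested. Within pairs A, B and C the medians of the members were -0.16, -0.06 and 0.06. By mean, 15 tested members were lower and 10 higher in the mutant, and 45.4% of all tested rows were lower. Lower values in all 3 pairs were seen for 6 members (Itgb5, Itga4, Itga3, Itga9, Itga2b and Tln2), against 17.2% of all tested rows, and higher values in all 3 pairs for 3 members (Itga6, Parva and Ptk2), against 19.6%. With the pair as a block in limma 0 members passed the adjusted threshold, where 0.0513% of rows did, all lower. At an unadjusted p under 0.05 there were then 5 members, all lower (Itgb5, Itga4, Itga3, Itga2b and Tln2), against 12.3% of all tested rows, 6.88% lower and 5.39% higher.

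**Figure D1:**
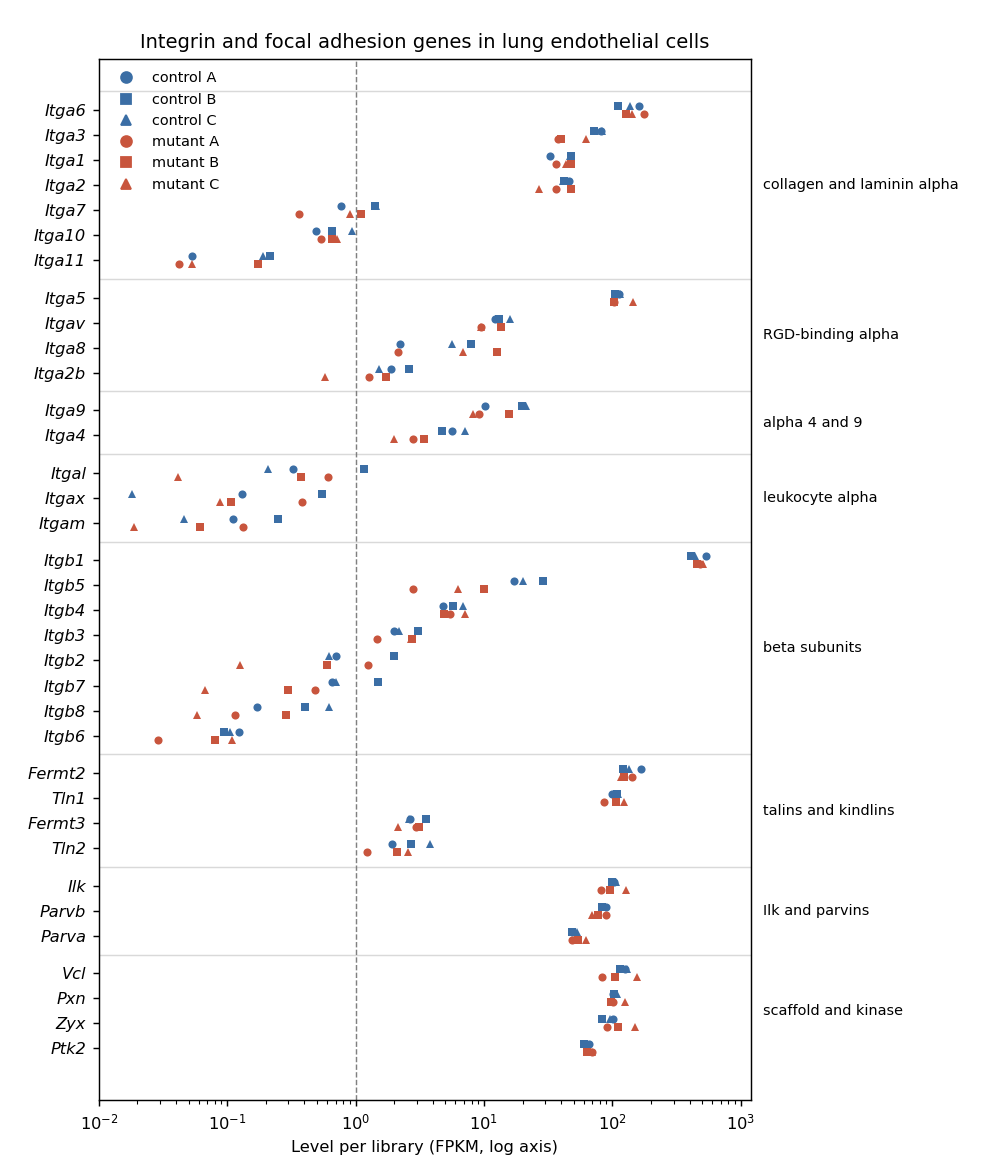
FPKM of the 35 members in each of the 6 libraries on a log axis, grouped by role; control libraries are blue and mutant libraries red, and the dashed line marks 1 FPKM. Itgb1 lies highest at 413 to 537 FPKM, the leukocyte alpha subunits lie mostly below 1 FPKM, and Itgb5, Itga3 and Itga4 show red points left of all blue points.

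The subunit with the widest difference was Itgb5, which encodes the beta 5 chain. Beta 5 pairs with the alpha v chain alone to form a receptor for vitronectin, and in lung endothelium that receptor has been tied to the control of vascular permeability. Itgb5 lies on chromosome 16, 33829665 to 33949338 (GENCODE, mouse build GRCm38), and no other annotated gene overlaps its exons. It was measured at 17.2, 28.7 and 20.2 FPKM (controls) and 2.78, 10 and 6.22 FPKM (mutants). The highest mutant library thus lay below the lowest control, and the library A value was the lowest of each group. Means were 22 ± 5.93 and 6.34 ± 3.62 FPKM, so that the mutant stood at 28.8% of the control.

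On the log2(FPKM + 1) scale the difference of Itgb5 was -1.75 ± 0.39 (SE), and limma gave an adjusted p of 0.333. Within pairs A, B and C it was -2.27, -1.43 and -1.56. With the pair as a block the adjusted p was 0.0958 in limma. Libraries B and C of both groups share a prefix in the description label, and over these 4 the difference was -1.49 (limma, adjusted p = 0.417). The A libraries carry a different prefix and, with 1 per group, give a value with no test. For Itgb5 the authors' deposited table gave -1.95 as log2 fold change and an unadjusted p of 0.03. The summed mesenchymal markers were 337, 990 and 988 FPKM in the controls against 244, 1006 and 460 FPKM in the mutants, lower in pairs A and C and not in pair B. Of 13 such markers 10 had a lower mutant mean. At an unadjusted p under 0.05 in limma without the block, 1 of the 12 tested was lower, against 4.29% of all tested rows. With the pair as a block 7 of the 12 were lower at that threshold, against 6.88% of all tested rows. The summed endothelial and Car4-high capillary markers separated the groups in the same direction as Itgb5. Of the 10 endothelial markers, however, only Cldn5 had groups without overlap, and 4 had a higher mutant mean. The separation of the endothelial sum rested on Cldn5. The part of the mesenchymal, endothelial and Car4-high capillary markers in the difference of Itgb5 was not tested.

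As a share of the summed FPKM of the 8 beta subunits, Itgb5 made up 4.55 ± 1.64% in control and 1.29 ± 0.778% in mutant libraries. Itgav, its alpha partner, was at 12.3, 13.1 and 16 FPKM across control and at 9.43, 13.7 and 9.41 FPKM across mutant libraries. These groups overlap, since mutant B lies above controls A and B. The difference of Itgav was -0.33 ± 0.17 (limma, adjusted p = 0.682). Itgb3, the other partner of alpha v in the classical vitronectin receptors, was low in both groups, at 2.41 ± 0.562 and 2.31 ± 0.722 FPKM (-0.05 ± 0.22, limma adjusted p = 0.966).

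Itga3 encodes the alpha 3 chain, which pairs with beta 1 as a receptor for laminins of the basement membrane. It lies on chromosome 11, 95044474 to 95076801. It was measured at 81.1, 71.6 and 83.1 FPKM (controls) and 37.9, 39.8 and 61.8 FPKM (mutants). All mutants were below all controls, and mutant C stood closest to them. Means were 78.6 ± 6.11 and 46.5 ± 13.3 FPKM, a difference of -0.78 ± 0.19 on the log2(FPKM + 1) scale (limma, adjusted p = 0.411; 0.232 with the pair as a block). Within pairs A, B and C the difference was -1.08, -0.83 and -0.42, and over pairs B and C it was -0.63 (limma, adjusted p = 0.495). Without mutant C it was -1 and the adjusted p was 0.0789 in limma. Itga3 made up 17.1 ± 0.401% of the summed FPKM of the 16 alpha subunits in control and 10.8 ± 2.55% in mutant libraries. The summed Car4-high capillary markers ordered the mutant libraries as Itga3 did, at 342, 258 and 174 FPKM for C, B and A. That order rested on Apln, which alone supplied 243 FPKM of the sum for C. Among the mutant libraries, no other marker of the list was highest in C. Car4, Ednrb and Kitl were lowest in C, with Car4 at 1.43 FPKM there against 14.1 for A and 20 for B. Of the 15 epithelial markers 9 had a lower and 6 a higher mutant mean. Hopx, at 59.5 ± 1.42 and 14.8 ± 8.07 FPKM, was the only 1 of the 10 tested without overlap. Ager, at 12.5 ± 3.08 and 11.5 ± 2.14 FPKM, and Pdpn, at 3.19 ± 0.677 and 3.66 ± 1.02 FPKM, overlapped between the groups. The part of either cell type in the difference of Itga3 was not tested.

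Itga4 encodes the alpha 4 chain, whose pair with beta 1 binds fibronectin and the adhesion molecule Vcam1 and which is best known from leukocytes. It lies on chromosome 2, 79255426 to 79333123. It was measured at 5.61, 4.68 and 7.13 FPKM across control and at 2.78, 3.4 and 1.98 FPKM across mutant libraries. The groups did not overlap, and mutant C was the lowest library. Means were 5.81 ± 1.24 and 2.72 ± 0.714 FPKM, a difference of -0.87 ± 0.20 (limma, adjusted p = 0.344; 0.32 with the pair as a block). Within pairs A, B and C it was -0.81, -0.37 and -1.45, and over pairs B and C -0.91 (limma, adjusted p = 0.486). The summed leukocyte markers were 32.7, 69 and 11.5 FPKM in the controls against 56.3, 15.8 and 6.93 FPKM in the mutants, and their part in the difference of Itga4 was not tested. Exons of Itga4 overlap those of Cerkl on the other strand, and Cerkl stood between 0.0294 and 0.266 FPKM.

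**Figure D2:**
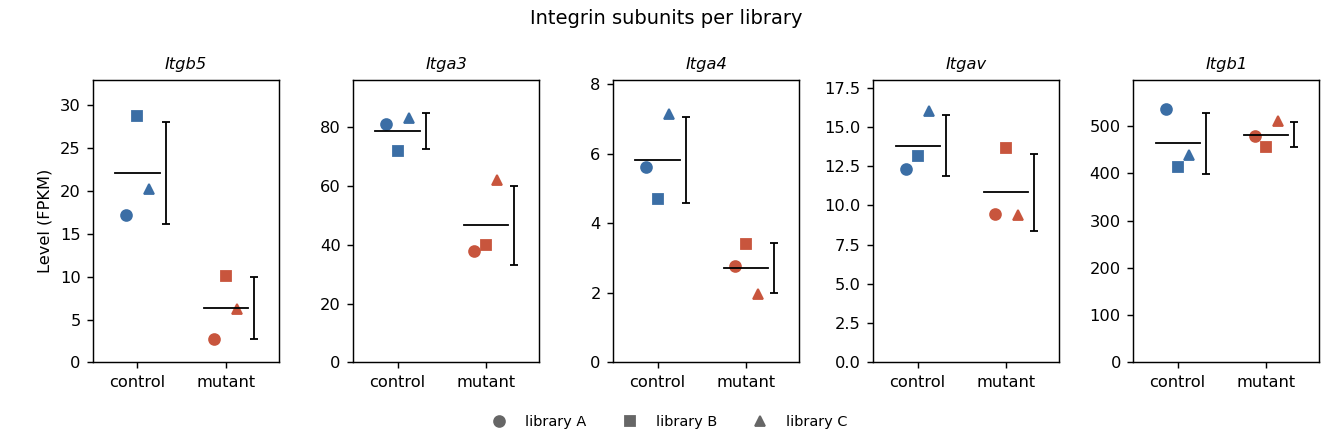
FPKM of Itgb5, Itga3, Itga4, Itgav and Itgb1 per library, with a line at each group's mean and a bar for the SD (n = 3). The control and mutant points of Itgb5, Itga3 and Itga4 do not overlap, while those of Itgav and of Itgb1, at 463 ± 65.2 and 482 ± 27 FPKM, do.

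The sequences before the annotated gene starts of these 3 subunits are shown beside that of Itgb1, the abundant common partner whose groups overlapped, so that the letters upstream of subunits with and without overlap of the groups can be read together. They come from RefSeq (build GRCm38.p6), where 25 of the 35 members had an entry, and are written 5′ to 3′ on the strand of the gene, ending at the base before the gene's start in RefSeq. That start is the one printed above for Itgb5 and Itga4, while for Itga3 RefSeq places it at 95076844, upstream of the GENCODE start. Capitals mark matches on either strand to the motifs CATTCC (TEAD factors), GGGCGG (SP factors), CCGGAAG (ETS factors) or TGANTCA (AP-1). The windows are chr16:33829415-33829664 on the plus strand for Itgb5, chr11:95076845-95076964 on the minus strand for Itga3, chr2:79255176-79255425 on the plus strand for Itga4 and chr8:128685404-128685653 on the plus strand for Itgb1.
Itgb5: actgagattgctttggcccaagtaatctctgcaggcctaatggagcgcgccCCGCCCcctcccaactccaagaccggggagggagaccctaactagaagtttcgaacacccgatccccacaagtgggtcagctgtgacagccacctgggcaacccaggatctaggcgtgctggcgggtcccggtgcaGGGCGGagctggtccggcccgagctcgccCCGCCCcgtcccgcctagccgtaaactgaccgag
Itga3: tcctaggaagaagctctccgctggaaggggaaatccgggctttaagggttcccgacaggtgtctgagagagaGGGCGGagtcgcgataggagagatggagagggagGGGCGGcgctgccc
Itga4: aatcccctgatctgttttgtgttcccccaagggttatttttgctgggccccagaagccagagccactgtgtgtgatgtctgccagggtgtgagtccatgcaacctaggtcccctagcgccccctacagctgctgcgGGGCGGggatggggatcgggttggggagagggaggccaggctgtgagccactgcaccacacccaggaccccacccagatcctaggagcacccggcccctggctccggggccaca
Itgb1: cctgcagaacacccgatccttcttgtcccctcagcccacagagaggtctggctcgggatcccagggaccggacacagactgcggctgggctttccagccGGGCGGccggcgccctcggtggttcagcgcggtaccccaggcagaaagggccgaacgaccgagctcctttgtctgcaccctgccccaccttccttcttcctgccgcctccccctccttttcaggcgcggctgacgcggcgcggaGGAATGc

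The SP motif was found in all 4 windows, with 3 matches before Itgb5, 2 before Itga3 and 1 each before Itga4 and Itgb1. Among 32851 RefSeq promoter windows of 250 bases 32.7% held it, and 12.8% of windows of the 120 bases used for Itga3. The TEAD motif was found before Itgb1 alone, 7 bases from the start, and 12.6% of windows of 250 bases held it. The ETS and AP-1 motifs, held by 6.91% and 6.75% of windows of 250 bases, were not in these windows. The motifs did not overlap each other there, and a match is a description of the letters, not evidence of binding.

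Beta 1, encoded by Itgb1, was the most abundant member. It pairs with most of the alpha chains that endothelial cells carry. Itgb1 stood at 537, 413 and 439 FPKM (controls) and 480, 456 and 510 FPKM (mutants). The mutant values lay within the range of the controls (0.06 ± 0.14, limma adjusted p = 0.932). It made up 93.2 ± 2.27% of the summed beta FPKM in control and 96.8 ± 0.819% in mutant libraries. Itgb4, which pairs with alpha 6 and anchors hemidesmosomes in epithelium, was at 5.78 ± 1.01 and 5.83 ± 1.16 FPKM (limma, adjusted p = 0.992).

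Itga6, Itga5, Itga1 and Itga2, the other abundant alpha chains, overlapped between the groups. Itga6, a laminin receptor chain, was the highest alpha subunit at 162, 111 and 136 FPKM across control and at 176, 129 and 143 FPKM across mutant libraries. Each mutant lay above the control of its pair, and the groups overlapped (0.13 ± 0.18, limma adjusted p = 0.885). Itga5, the fibronectin receptor chain, was at 112, 105 and 115 FPKM (controls) and 103, 103 and 146 FPKM (mutants). Mutant C was the highest library and mutants A and B the lowest (0.06 ± 0.16, limma adjusted p = 0.945). The collagen receptor chains Itga1 and Itga2 were at 42.5 ± 8.44 and 43 ± 2.53 FPKM in control and at 42.6 ± 5.74 and 36.8 ± 10.4 FPKM in mutant libraries. Their adjusted p in limma was 0.987 and 0.787. Together the 5 chains Itga1, Itga2, Itga3, Itga5 and Itga6 made up 87.8% to 93.6% of the alpha sum in a library.

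Itga9, whose pair with beta 1 binds tenascin and is needed for lymphatic valves, was lower in mean and in all 3 pairs. It stood at 10.2, 19.7 and 21.1 FPKM across control and at 9.13, 15.6 and 8.25 FPKM across mutant libraries. The groups overlapped because control A lay between the mutants (-0.57 ± 0.32, limma adjusted p = 0.709). The pair C difference was the widest, at -1.26, against -0.14 and -0.32 in pairs A and B.

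Subunits typical of other cell types were low. Of those compared, only Itgam and Itga2b ordered all 6 libraries as the summed leukocyte and platelet markers did. Itgb7 differed from the leukocyte order, Itgb3 from the platelet order, Itga8 from the mesenchymal order, and the kindlin Fermt3 from the leukocyte and platelet orders. Itgb2, the beta chain of leukocyte integrins, was at 0.702, 1.98 and 0.625 FPKM (controls) and 1.24, 0.603 and 0.126 FPKM (mutants). Its partners Itgal, Itgam and Itgax had their highest values in the same libraries as Itgb2, control B and then mutant A, at 1.17 and 0.61 FPKM for Itgal. Those were also the libraries with the highest sums of leukocyte markers, at 69 and 56.3 FPKM, and the order of all 6 libraries was the same for Itgam as for that sum. Of the 16 leukocyte markers, 12 had a lower and 4 a higher mutant mean, and Spi1, Cd3e, Cd52 and S100a8 were among those listed at 0 in at least 1 library.

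Itgb7, which pairs with alpha 4 or alpha E in lymphocytes, was under the level for testing. It was at 0.654, 1.5 and 0.701 FPKM across control and at 0.482, 0.297 and 0.0675 FPKM across mutant libraries. Its groups did not overlap, with mutant C lowest. With no filter on low values its adjusted p was 0.666 in limma. Itgb8 and Itgb6, which with alpha v release latent TGF-beta, stood below 0.63 and 0.13 FPKM in every library. Their groups overlapped.

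Itga2b, the alpha chain of the platelet fibrinogen receptor, was at 1.89, 2.61 and 1.52 FPKM (controls) and 1.27, 1.72 and 0.581 FPKM (mutants). The groups overlapped in mutant B (-0.48 ± 0.25, limma adjusted p = 0.696). The 6 libraries fell in the same order by Itga2b as by the summed level of 10 platelet markers, which was 15.9 to 23.3 FPKM in control and 6.38 to 17 FPKM in mutant libraries. Of these markers 9 were lower in mean in the mutant, and Ppbp and Gp6 were listed at 0 in 1 library each. The part of platelet RNA in the level of Itga2b was not tested.

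Itga8, a receptor chain for nephronectin typical of mesenchymal cells, varied 5.93-fold over the libraries. It was at 2.22, 7.92 and 5.61 FPKM across control and at 2.15, 12.7 and 6.87 FPKM across mutant libraries. The low libraries were A in both groups, where the summed mesenchymal markers were lowest too, at 337 and 244 FPKM. The difference between the groups was 0.28 ± 0.59 (limma, adjusted p = 0.928). Itga7, Itga10 and Itga11, known from muscle, cartilage and fibroblasts, had means of 0.996, 0.667 and 0.121 FPKM over the 6 libraries and were not tested.

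**Figure D3:**
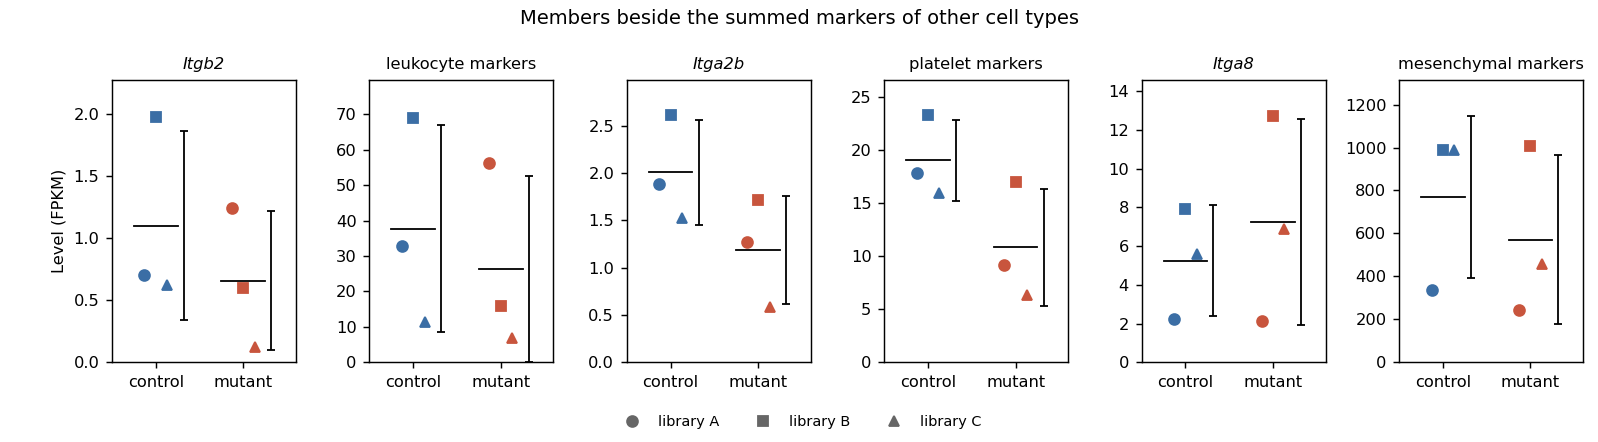
FPKM of Itgb2, Itga2b and Itga8 per library beside the summed FPKM of 16 leukocyte, 10 platelet and 13 mesenchymal markers, with a line at each group's mean and a bar for the SD (n = 3). Control B is the highest library for Itgb2 and for leukocyte markers, and the library A points are lowest in each group for Itga8 and for mesenchymal markers.

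The proteins that switch integrins on were expressed as 1 abundant and 1 scarce form of each family. Talin 1 (Tln1) was at 99.3, 109 and 111 FPKM (controls) and 86.2, 107 and 123 FPKM (mutants). The mutants lay on both sides of the controls (-0.03 ± 0.15, limma adjusted p = 0.972). Talin 2 (Tln2), the second isoform, was at 2.8 ± 0.936 and 1.96 ± 0.671 FPKM and lower in each pair (-0.36 ± 0.25, limma adjusted p = 0.775, 0.39 with the pair as a block). For Tln2 the authors' deposited table gave -0.52 as log2 fold change and an unadjusted p of 0.0268. Tln2 and Itgb5 were the 2 members under 0.05 there, of 35 with a value, against 7.53% of all rows with a value.

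Kindlin 2 (Fermt2), the form of most tissues, was at 167, 122 and 136 FPKM across control and at 142, 124 and 118 FPKM across mutant libraries (-0.14 ± 0.15, limma adjusted p = 0.849). Its groups overlapped. Kindlin 3 (Fermt3), the form of blood cells, was at 2.93 ± 0.551 and 2.74 ± 0.519 FPKM (limma, adjusted p = 0.943).

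The complex of Ilk and the parvins, which joins the beta tail to actin, overlapped between the groups in all 3 members. Ilk was at 103, 99.1 and 106 FPKM (controls) and 82.2, 95.3 and 128 FPKM (mutants). The controls lay within a narrow band and the mutants on both sides of it (-0.04 ± 0.17, limma adjusted p = 0.967). Exons of Ilk overlap those of Taf10 on the other strand, which stood between 46.1 and 74.8 FPKM, so that the level of Ilk is uncertain where counting ignores the strand. The same limit holds for Tln1, whose exons overlap Creb3 (27.6 to 35.8 FPKM), and for Vcl, whose exons overlap Ap3m1 (13.7 to 17.4 FPKM). Beta parvin (Parvb) was at 89.1, 82.6 and 85.9 FPKM across control and at 89.9, 77.9 and 69 FPKM across mutant libraries (-0.13 ± 0.12, limma adjusted p = 0.826). Alpha parvin (Parva) was at 49.8 ± 2.7 and 55.1 ± 7.17 FPKM (0.14 ± 0.12, limma adjusted p = 0.808). Both parvins overlapped between the groups, with opposite signs of the mean difference.

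Vinculin (Vcl), which reinforces the link of talin to actin under load, was at 126, 114 and 129 FPKM (controls) and 82.5, 105 and 156 FPKM (mutants). Mutants A and B were the lowest libraries and mutant C the highest. The pair differences therefore had unlike signs, at -0.61, -0.12 and 0.27 in pairs A, B and C (fitted difference -0.15 ± 0.22, limma adjusted p = 0.894). Zyxin (Zyx), which gathers at adhesions under tension, was at 101, 82.8 and 96.3 FPKM across control and at 91, 111 and 150 FPKM across mutant libraries. It was lower in pair A and higher in pairs B and C, at -0.14, 0.42 and 0.64 (fitted difference 0.31 ± 0.19, limma adjusted p = 0.735).

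Paxillin (Pxn), a docking scaffold, was at 101, 102 and 108 FPKM (controls) and 102, 97 and 126 FPKM (mutants) (0.05 ± 0.12, limma adjusted p = 0.942). Mutant C was again the highest. Focal adhesion kinase (Ptk2) had the narrowest range of all members, from 60.7 to 69.3 FPKM, or 1.14-fold over the 6 libraries. It was at 65.6, 60.7 and 62.3 FPKM across control and at 69.1, 63.8 and 69.3 FPKM across mutant libraries. Each mutant lay slightly above its control, and the groups overlapped (0.10 ± 0.09, limma adjusted p = 0.815).

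**Figure D4:**
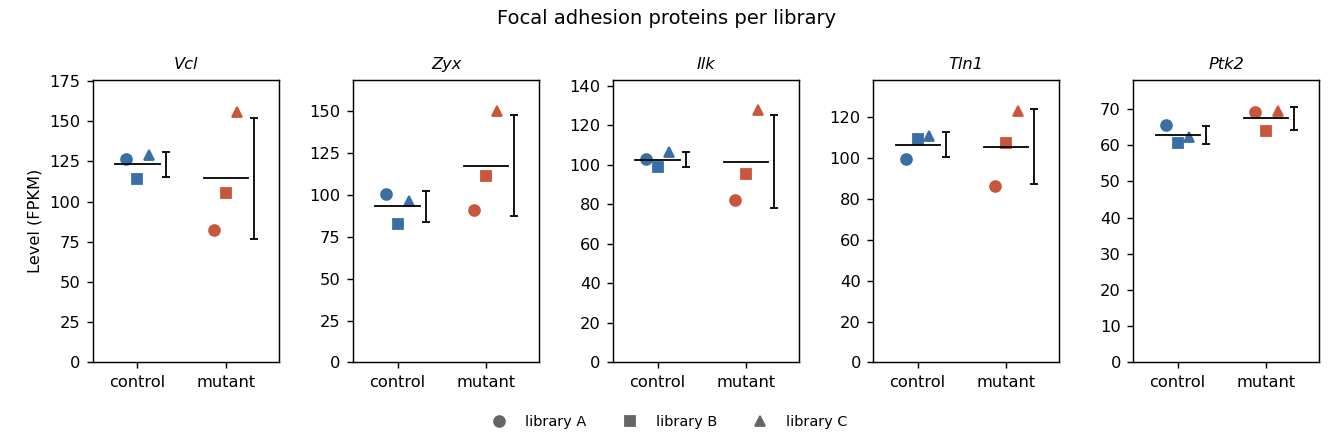
FPKM of Vcl, Zyx, Ilk, Tln1 and Ptk2 per library, with a line at each group's mean and a bar for the SD (n = 3). In Vcl, Ilk and Tln1 the mutant A point is lowest and the mutant C point highest, with the controls between, while Ptk2 stays between 60.7 and 69.3 FPKM.

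The SD was larger in the mutant for 8 of the 11 focal adhesion proteins, or 72.7%, near the 57.6% of all tested rows. Mutant C was the highest library for 7 of the 11, or 63.6%, against 28.1% of all tested rows, and the lowest for 3. Mutant A was the lowest for 4, or 36.4%, against 23.3% of all tested rows. These shares are descriptions, since the 11 genes are not independent.

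**Figure D5:**
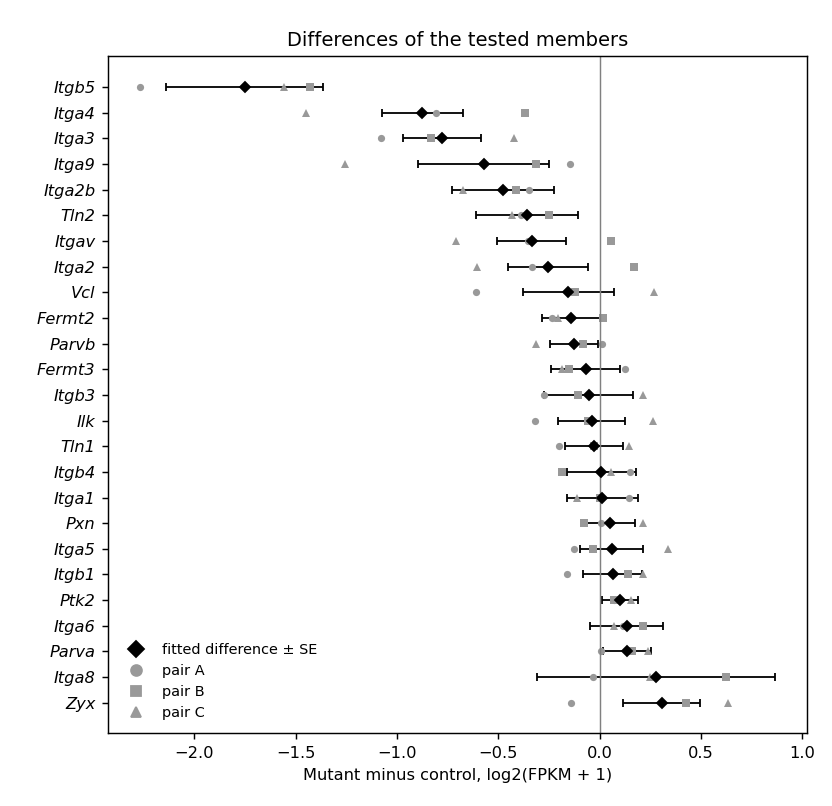
Mutant minus control on the log2(FPKM + 1) scale for the 25 tested members, with the fitted difference and its SE as black diamonds and the 3 pairs as grey points. Itgb5, Itga4 and Itga3 lie farthest to the left, at -1.75, -0.87 and -0.78, and the focal adhesion proteins lie between -0.36 (Tln2) and 0.31 (Zyx).

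Other genes of the adhesion pathway were compared in the same fit. Of 51 adhesion partners, 46 were tested in limma and 0 passed the adjusted threshold. At an unadjusted p under 0.05 there were 2, both lower, which is 4.35% against 8.1% of all tested rows. These were Tns2, a tensin that binds beta tails, at 64.3 ± 2.57 and 50.7 ± 4.02 FPKM (-0.34 ± 0.10, limma adjusted p = 0.47), and Csk, the kinase that restrains Src, at 51.6 ± 3.95 and 41.1 ± 2.4 FPKM (-0.32 ± 0.10, limma adjusted p = 0.52). The groups of both did not overlap, nor did those of Tgfb1i1 and Kank3. These were 4 of the 46, all lower, where 6.57% of tested rows had no overlap in the lower and 7.12% in the higher direction. Tgfb1i1, a relative of paxillin, and Elmo1, a partner of Dock1, had differences of -0.25 ± 0.12 and -0.22 ± 0.11 (limma, adjusted p = 0.656 and 0.667). The median of the 46 was -0.04, beside 0.02 for all rows tested.

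Ligands of integrins differed in both directions by mean. Of 36, 32 were tested in limma, 0 passed the adjusted threshold, and 3 were lower and 3 higher at an unadjusted p under 0.05, together 18.8% against 8.1% of all tested rows. With the pair as a block 5 were lower and 7 higher at that threshold, where 12.3% of all rows passed. Edil3, a secreted protein that binds the alpha v integrins, was at 34.6, 22.2 and 28.6 FPKM (controls) and 15.6, 13 and 9.01 FPKM (mutants). All mutants were below all controls, with a difference of -1.13 ± 0.23 (limma, adjusted p = 0.262). Icam2, a ligand of leukocyte integrins on endothelium, was at 414 ± 80.1 and 269 ± 42 FPKM (-0.62 ± 0.19, limma adjusted p = 0.503).

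The matrix proteins Hspg2 (perlecan) and Lama4 (laminin alpha 4) had higher means in the mutant. Hspg2 was at 53.8 ± 5.74 and 128 ± 75.4 FPKM, with mutant C at 215 FPKM (1.09 ± 0.36, limma adjusted p = 0.546). Lama4 was at 43 ± 5.62 and 66.9 ± 20 FPKM (0.60 ± 0.21, limma adjusted p = 0.576). The groups of both did not overlap. Among the 32 tested ligands 2 were without overlap in the lower and 2 in the higher direction, against 6.57% and 7.12% of tested rows. Vitronectin (Vtn), the ligand that names the alpha v beta 5 receptor, was chosen after its values were seen and lay below the level for testing. It was at 1.08, 1.56 and 1.25 FPKM across control and at 0.213, 0.208 and 0.162 FPKM across mutant libraries. The groups did not overlap, and with no filter on low values the difference was -0.94 with an adjusted p of 0.0518 in limma.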

How the data were processed

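RNA of sorted lung endothelial cells was measured in 6 libraries, 3 control and 3 mutant. Per the labels' protocols, 100 to 200 ng of total RNA was enriched for mRNA and sequenced as 76 nt pairs. The genome build named is mm10. The submitters' processing notes list Cufflinks 2.2.1 with Cuffdiff, TopHat2 2.0.14 and Bowtie2 2.2.3. No source used here states a strand setting, and 13 members have exons that overlap another gene. The authors deposited FPKM per library, with their own log2 fold change and p-value.

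The test was limma 3.58.1 (R 4.3.3) on log2(FPKM + 1), its variance prior following the mean level. Rows averaging 1 FPKM or more, 11693 in all, entered it, and p-values were adjusted over them by the Benjamini-Hochberg method. Because FPKM are not counts, count models were not used, total depth is unknown and no counting intervals are given. Fold changes on this scale understate those of low genes. The fit was tested on simulated data. The labels do not tie libraries to separate animals. The p-values therefore reflect only how far these libraries spread, which may be technical.

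Pairing by letter was checked: within a letter, the deviations of both libraries from their group means had correlations of 0.361, 0.268 and 0.191 for A, B and C, each over the limit of 0.1. Between letters the highest correlation was 0.0613. The main fit had no block. Members and lists were chosen with earlier results of these data known. Every member was named, with library values where the groups did not overlap, the unadjusted p was under 0.05 or the level was among the 12 highest, and of the other lists the 4 genes of lowest p. Of these lists 1 gene, Tns2, was found by the older symbol Tenc1. Positions come from GENCODE M21 on GRCm38, the build of mm10. The alternatives changed the pseudocount, the filter, the scaling or the variance model, added the block, merged repeated symbols, fitted or restricted to a prefix of the description label (chosen after seeing the data), or left out 1 library.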

Additional observations from a re-analysis of the deposited data

How the results depend on the processing

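Under all 18 alternatives 0 members, 0 adhesion partners and 0 ligands passed the adjusted threshold in limma, and Itgb5, Itga3 and Itga4 were lower in each one that kept them (Itga4 falls below the filter at 5 FPKM), with differences of -2.11 to -1.34, -1 to -0.63 and -1.08 to -0.72 and adjusted p from 0.0958 to 0.857, 0.0789 to 0.961 and 0.246 to 0.889. Members at an unadjusted p under 0.05 numbered 5 with the replicate block, which added Itga2b and Tln2, against 12.3% of all rows. When a library was left out they numbered 3 to 7, against 4.91% to 9.63% of all rows. There were 7 without mutant B (9.63% of all rows), where Itga2, Itgav, Itga9 and Itga2b joined. Among pairs B and C alone they were Itgb5, Itga4, Itga9 and Zyx, 4 of 26 tested, against 10% of all rows. With 3 complete pairs the replicate block could not change a difference, and no member had an adjusted call that it could end. The median of the members ran from -0.13 to 0.03 with a library left out.

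Of the 25 tested members 13 kept their sign in every alternative that tested them; Itga4, Itga2b and Tln2 were not tested at the 5 FPKM filter. The 12 others changed sign; the cause was not tested. With a library left out they ranged from -0.14 to 0.050 for Fermt3, -0.21 to 0.10 for Ilk, -0.16 to 0.12 for Itga1, -0.11 to 0.14 for Itga5, -0.0061 to 0.27 for Itga6, -0.21 to 0.85 for Itga8, -0.013 to 0.18 for Itgb1, -0.16 to 0.14 for Itgb3, -0.12 to 0.12 for Itgb4, -0.063 to 0.12 for Pxn, -0.14 to 0.11 for Tln1 and -0.40 to 0.056 for Vcl. Over pairs B and C the differences were -0.053 for Itga1, 0.056 for Itgb3, -0.064 for Itgb4, 0.059 for Tln1, 0.10 for Ilk and 0.074 for Vcl. Quantile normalization gave -0.0071 for Itgb1 and -0.0060 for Itgb4, and median-of-ratios rescaling -0.0013 for Itgb4. With 3 libraries a group, members below 1 FPKM could not be compared with precision.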
